A study of Mus musculus with 25 samples.

Results

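The genes described here are 49 that copy DNA in S phase, listed by name and grouped by role from the helicase at the fork to the cyclins that start S phase. All 49 of the 49 listed genes were among the 13641 genes of the deposited count table, and all 49 passed the filter on low counts. They were followed in hematopoietic stem cells sorted as Lin−Sca1+cKit+CD48−CD150+ from the bone marrow of mice that had been engrafted with donor marrow. The donors had 4 genotypes, and the transplanted mice received tamoxifen 16 weeks after engraftment and were killed 2 or 4 weeks after it began.

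By the labels, every donor genotype carried SclCre, a Cre recombinase under control of the Scl (Tal1) gene, and a GFP reporter. The group called WT was SclCre;GFP, with 4 libraries at 2 weeks and none at 4 weeks. The group called VF was SclCre;V617F;GFP, in which Cre switches on a human JAK2 with the activating V617F mutation of myeloproliferative neoplasms, with 4 libraries at 2 weeks and 3 at 4 weeks. Il1bKO was SclCre;V617F;IL-1b-/-GFP, which adds loss of the cytokine IL-1β in the donor cells, and Il1r1KO was SclCre;V617F;IL-1R1-/-GFP, which adds loss of the IL-1 receptor; each had 4 libraries at 2 weeks and 3 at 4 weeks. Libraries keep the numbers of their titles, 1 to 4 at 2 weeks and 5 to 7 at 4 weeks. The genotype of the recipients, and whether a library came from 1 mouse or a pool, are not given in the sources used here, so p-values measure the spread between these libraries. The 2 times were processed as 2 batches, so time and batch cannot be told apart in any comparison of 4 with 2 weeks.

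Library totals ran from 21990959 to 40178173 counts, and 13039 to 13491 genes were detected in 24 of the 25 libraries. Library 5 of Il1bKO at 4 weeks stood apart, with the most counts and 11871 genes detected. The labels held for the mutant construct: the first JAK2 segment had 1 to 20 reads in WT and 1782 to 5944 in the other groups. At 2 weeks it had 5022 to 5944 reads in Il1r1KO against 2563 to 3621 in VF and 2689 to 3804 in Il1bKO. At 4 weeks the Il1r1KO range of 3133 to 4643 overlapped that of VF, 2990 to 3684. The second JAK2 segment had 2742 to 3604 reads in Il1r1KO against 918 to 1649 in VF at 2 weeks. At 4 weeks it had 2135 to 2735 against 1396 to 1681. CreERT2, the Cre sequence, had 0 to 1 reads in the libraries labelled WT against 5382 to 32987 elsewhere, although their label names SclCre, and the GFP sequence had 83 reads in WT 3 and 1345 in WT 4 against 10221 or more in every other library. GFP reads at 2 weeks were 24763 to 29413 in Il1r1KO against 10221 to 15390 in VF. At 4 weeks they were 25645 to 33012 against 12901 to 16180. The part of these construct differences between Il1r1KO and VF in the replication values was not tested. Il1b had 0 reads in all 7 Il1bKO libraries, but also 0 in 3 of the 4 WT libraries. Il1r1 had 271 to 882 reads in the Il1r1KO libraries against 12 to 669 elsewhere, and whole-gene counts do not show whether the receptor's transcript is intact. All 15 stem cell markers looked for, among them Procr, Slamf1 and Mecom, were detected in every library.

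Replication starts when the origin recognition complex with Cdc6 and Cdt1 loads the Mcm2 to Mcm7 ring onto DNA in G1, which licenses the origin. In S phase Cdc45 and the GINS complex turn this ring into the active helicase, primase and the polymerases copy both strands, and the Rfc loader places the Pcna clamp that holds the polymerases on DNA. Cyclin E and E2F1 promote entry into S phase, and many of these genes are textbook E2F targets. Most hematopoietic stem cells rest outside the cycle, so bulk levels of these genes are low when few cells replicate. In bulk RNA, more cells in S phase and more of these transcripts per cell cannot be told apart.

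RefSeq promoter windows (GRCm38.p6, the mm10 build, 250 bases before to 50 after the start) matched 41 of the 49 genes. They are shown because the genes moved together, for the 2 called genes of lowest p (Slbp and Rfc3), for Mcm3 of the helicase and for Orc1 of the licensing complex, chosen after their values were seen. Capitals mark E2F-type letters (TTTCCCGC, TTTGGCGC, TTTCGCGC or TTTGCCGC) and CCAAT, each searched on both strands, where matches may overlap.
Slbp, chr5:33652525-33652824, minus strand: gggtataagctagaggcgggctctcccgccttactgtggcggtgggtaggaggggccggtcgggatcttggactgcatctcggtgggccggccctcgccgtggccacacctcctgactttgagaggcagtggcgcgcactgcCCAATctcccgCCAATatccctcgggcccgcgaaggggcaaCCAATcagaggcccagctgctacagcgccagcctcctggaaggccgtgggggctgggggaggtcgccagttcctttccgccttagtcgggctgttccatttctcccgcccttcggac
Rfc3, chr5:151651159-151651458, minus strand: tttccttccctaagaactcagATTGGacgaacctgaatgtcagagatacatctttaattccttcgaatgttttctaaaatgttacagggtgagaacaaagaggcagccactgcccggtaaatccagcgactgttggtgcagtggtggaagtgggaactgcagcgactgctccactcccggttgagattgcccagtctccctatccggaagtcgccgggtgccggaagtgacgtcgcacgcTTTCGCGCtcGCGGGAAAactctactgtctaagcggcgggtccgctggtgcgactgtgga
Mcm3, chr1:20820263-20820562, minus strand: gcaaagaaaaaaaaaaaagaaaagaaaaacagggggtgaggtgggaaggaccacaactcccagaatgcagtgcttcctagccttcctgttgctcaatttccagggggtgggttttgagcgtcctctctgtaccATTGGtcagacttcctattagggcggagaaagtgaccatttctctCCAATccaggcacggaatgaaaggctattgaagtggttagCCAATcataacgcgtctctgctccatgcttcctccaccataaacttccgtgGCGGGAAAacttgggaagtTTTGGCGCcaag
Orc1, chr4:108579204-108579503, plus strand: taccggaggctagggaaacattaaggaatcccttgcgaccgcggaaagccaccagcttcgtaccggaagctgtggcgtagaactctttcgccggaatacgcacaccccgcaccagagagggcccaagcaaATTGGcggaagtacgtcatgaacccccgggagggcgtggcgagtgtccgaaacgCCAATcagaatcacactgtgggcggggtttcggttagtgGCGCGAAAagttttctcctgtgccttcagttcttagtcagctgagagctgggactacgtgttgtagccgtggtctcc
In Rfc3 one E2F-type match spans bases -10 to -3 from the start and the other spans 1 to 8, and in Orc1 the match spans -27 to -20. Mcm3 holds both matches after the start, at 20 to 27 and 39 to 46. Slbp has no E2F-type letters in this window but 3 CCAAT matches between -108 and -63. Of the called genes with a window, only Rfc3 held E2F-type letters, and Rfc2 had no window. Mcm3 and Orc1 were not among the called genes. Some genes had more than 1 window, and a match in any of them counted. Of the 41 genes matched, 16 (39%) held E2F-type letters, against 4.61% of the 10511 genes of the count table with a window of the same length and 2.6% of all 27025 genes with one. With only the first window of each gene it was 14 of 41 (34.1%), against 4.1% of the genes of the count table. CCAAT was found for 25 of the 41 (61%), against 43.1% of the genes of the count table. A match is a description of letters, not evidence of binding.

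Levels between genes were compared as TMM-scaled CPM, reads scaled to library size, divided by kilobases of exon (CPM per kb), averaged over the 25 libraries. Mcm6, a subunit of the helicase, was highest at 130.5 CPM per kb (SD 28.5), followed by Mcm3 at 77.6 (SD 21), Dut, which removes dUTP from the nucleotide pool, at 76.5 (SD 24.6) and Pcna at 67.2 (SD 15.3). The lowest were Orc1 at 5.04 (SD 1.98), Ccne1, which encodes cyclin E1, at 5.03 (SD 2.44), Mcm10, which helps activate the helicase, at 3.74 (SD 1.92) and Clspn, which encodes the checkpoint adaptor Claspin, at 3.63 (SD 1.02). Neighbours in this order, such as Mcm3 and Dut or Orc1 and Ccne1, lay within the spread of each other. Spread between libraries was smallest for Rfc1 (SD 0.19 on the log2 CPM scale), Gins4 (0.21) and Gins2 (0.23), and largest for Mcm10 (1.74), Ccne1 (1.64) and Rrm2 (0.68). The last 3 rest partly on library 5 of Il1bKO at 4 weeks, which had 1 read of Mcm10 and 0 of Ccne1. That count of 0 in 40178173 allows up to 0.0747 CPM (3 counts, counting error only). Counting did not use strand, and 67.3% of the Gins2 exon length overlaps Gse1, so the Gins2 spread may not be that of its transcript alone. The overlap was 84.2% for Fen1 and 52.5% for Chaf1a (Ubxn6). CPM per kb divides by the whole exon length, overlaps included.

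**Figure D1:**
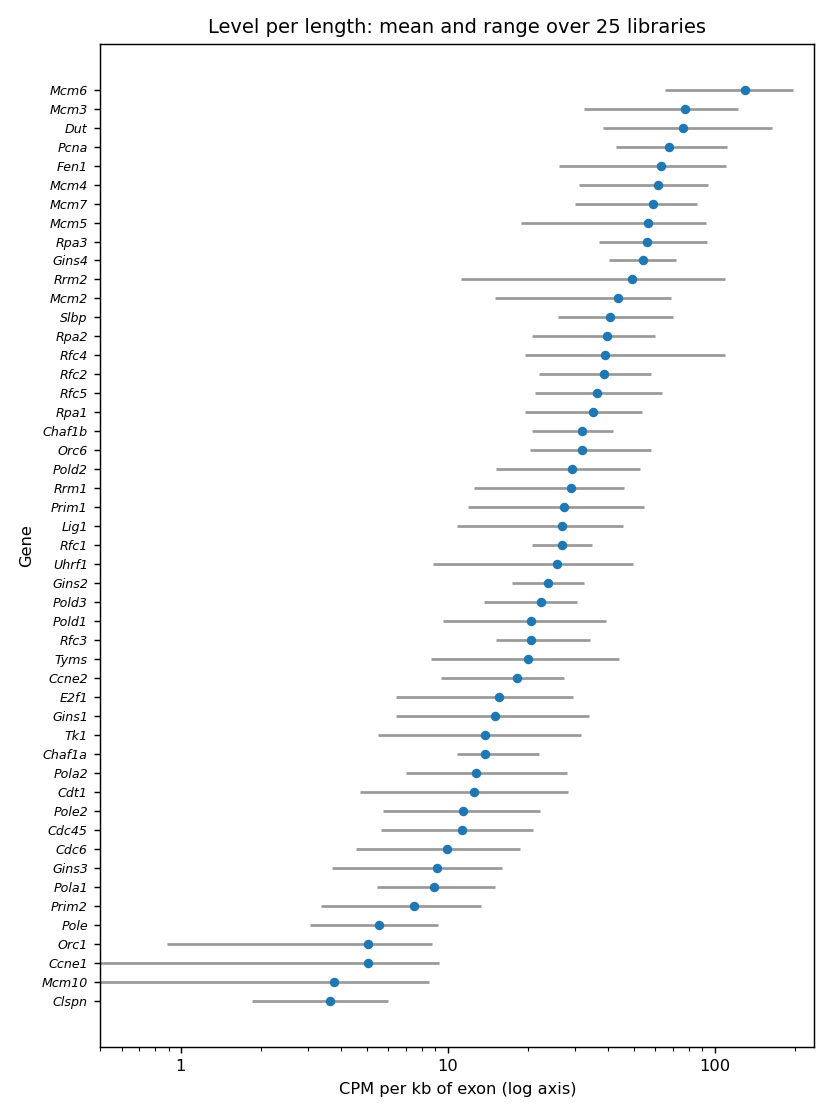
Mean level of each of the 49 genes (points) and its range over 25 libraries (lines) in CPM per kb of exon, on a log axis that ends at 0.5, so the lower ends of Ccne1 and Mcm10 run off it. Levels fell from 130.5 for Mcm6 to 3.63 for Clspn.

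Summed over the 49 genes, the 3 Il1r1KO libraries at 4 weeks were the highest of the 25, at 8954, 8748 and 9030 CPM. The 4 Il1r1KO libraries at 2 weeks had 5516, 5949, 5761 and 6181 CPM. VF ran from 4821 to 5730 at 2 weeks and had 5062, 7867 and 6065 at 4 weeks. Il1bKO ran from 4518 to 6519 at 2 weeks and had 6298, 8351 and 7368 at 4 weeks. WT had 3256, 5803, 5205 and 5498 CPM. The sums of 4 weeks lay above all those of 2 weeks in Il1r1KO, and overlapped them in VF and Il1bKO.

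The pattern ran across nearly all 49 genes and not a few. In the Il1r1KO libraries of 4 weeks, 46, 49 and 49 of the genes were above their own median over the 25 libraries, and 41 of the 49 had their highest value in 1 of these 3. Library 6 of VF at 4 weeks also had 49 of 49 above their medians, against 8 and 32 in its replicates 5 and 7. Its megakaryocyte markers summed to 2658 CPM, against 664.2 and 696.1 in replicates 5 and 7, and it had 391 Il1b reads against 19 and 1. Its stem cell marker sum, 3355 CPM, was near their 3447 and 3421. The part of these features in its replication values was not tested. At the low end, WT 1 held the lowest value of 37 genes and had 0 of 49 above the median, whereas WT 2, 3 and 4 had 22, 5 and 11.

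**Figure D2:**
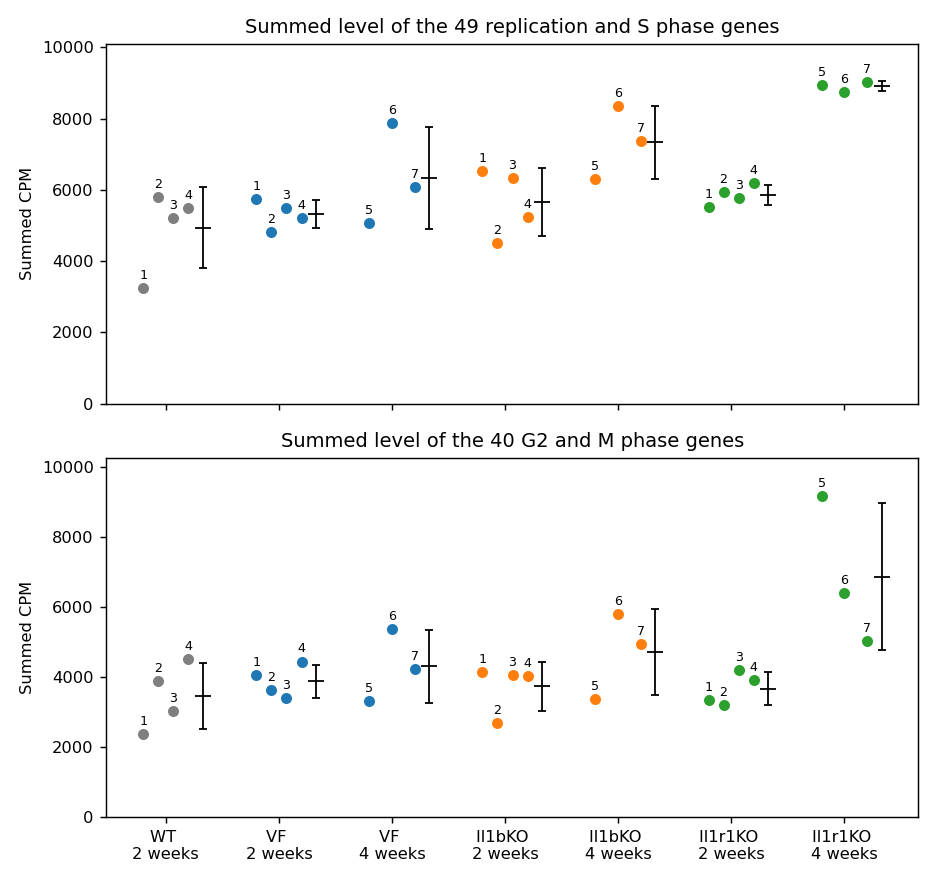
Summed CPM of the 49 replication and S phase genes (top) and of 40 G2 and M phase genes (bottom) in each library, numbered by replicate, with the mean and SD of each group beside the points. The 3 Il1r1KO libraries of 4 weeks sit between 8748 and 9030 in the top panel, above all others, and WT 1 is lowest at 3256.

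**Figure D3:**
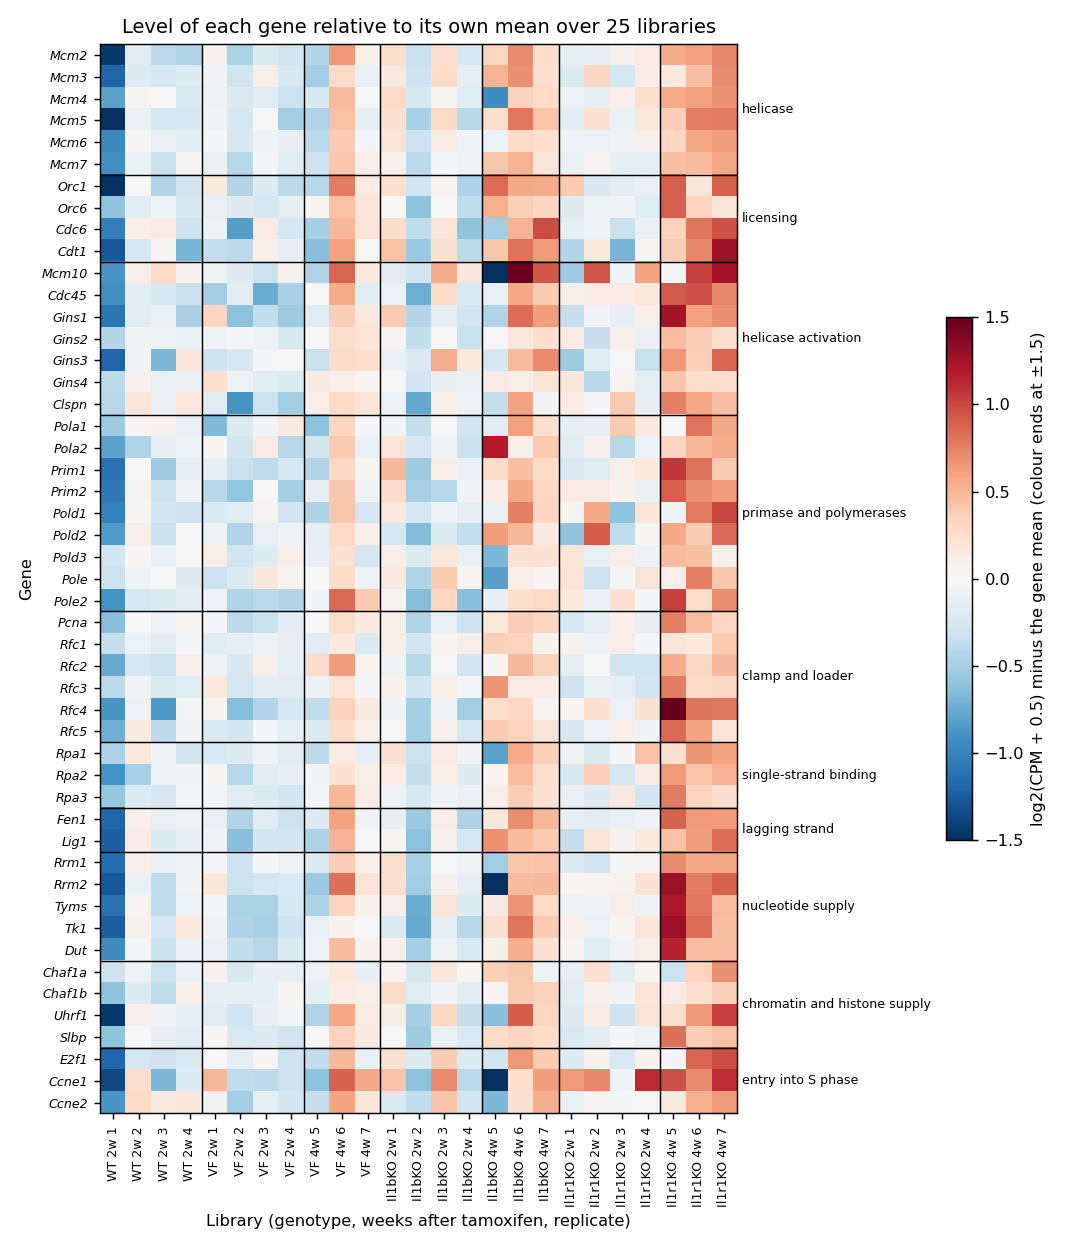
Level of each of the 49 genes (rows, by role) in each of the 25 libraries (columns, by group), as log2(CPM + 0.5) minus the gene's mean over libraries; colours end at ±1.5. WT 1 is blue and the Il1r1KO libraries of 4 weeks are red in nearly every row, and library 5 of Il1bKO at 4 weeks is mixed.

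Between 4 and 2 weeks, 9 of the 49 genes rose in Il1r1KO by edgeR's quasi-likelihood test with Benjamini-Hochberg adjustment over 13630 genes (adjusted p of 0.0205 to 0.0469), and 0 fell. Of all genes tested, 2.46% were called in either direction and 1.67% were called higher. All 49 log2 fold changes were positive, with a median of 0.63 (1.54-fold), while the median of all genes tested was -0.02 and 48.2% were positive. In 36 of the 49 genes every library of 4 weeks lay above every library of 2 weeks, against 9.17% of all genes. The 9 called genes were Slbp, Rfc2, Rfc3, Rfc4, Pcna, Rpa3, Orc6, Fen1 and Dut.

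Of the 9, 4 load or form the sliding clamp. Rfc4, a subunit of the clamp loader (chromosome 16, 23113943 to 23127737), had 56.5, 66, 52.1 and 64.3 CPM at 2 weeks and 167, 97.4 and 96.1 at 4 weeks. Its 3 late values were the highest of the 25 libraries, and library 5 was far above the other two. The log2 fold change was 1.01 (SE 0.23) with an edgeR adjusted p of 0.033. Rfc3 (chromosome 5, 151642756 to 151651242) had 58.1, 66.8, 65.4 and 59.1 CPM at 2 weeks and 123, 87.8 and 90 at 4 weeks, a change of 0.69 (SE 0.15, edgeR adjusted p 0.0268). Rfc2 (chromosome 5, 134581366 to 134601805) had 214, 234, 191 and 192 CPM and then 347, 291 and 330, a change of 0.64 (SE 0.16, edgeR adjusted p 0.0425). Pcna, the clamp itself (chromosome 2, 132249162 to 132253314), had 131, 143, 166 and 145 CPM and then 267, 217 and 196, a change of 0.63 (SE 0.15, edgeR adjusted p 0.0336). In all 4 genes the 2 groups did not overlap. The other 2 loader subunits also had no overlap but did not pass: Rfc5 had a log2 fold change of 0.64 with an edgeR adjusted p of 0.0514, and Rfc1, the large subunit, one of 0.24 (SE 0.11) with an adjusted p of 0.245.

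Slbp, which binds the stem loop of replication-dependent histone mRNAs (chromosome 5, 33634952 to 33652574), had the lowest p. Its levels were 205, 214, 238 and 228 CPM at 2 weeks and 426, 311 and 326 at 4 weeks, a log2 change of 0.68 (SE 0.14, edgeR adjusted p 0.0205). The other chromatin genes were Chaf1a and Chaf1b, subunits of the CAF-1 histone chaperone, and Uhrf1, which passes DNA methylation to the new strand; 0 of these 3 passed. Uhrf1 had a log2 change of 0.72 (SE 0.32, edgeR adjusted p 0.215), with 90.1, 111, 82.9 and 118 CPM at 2 weeks and 124, 162 and 210 at 4 weeks, where library 5 lay just above the highest early value.

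Fen1, the flap endonuclease that trims Okazaki fragments (chromosome 19, 10199132 to 10204169), had 134, 129, 134 and 139 CPM at 2 weeks and 267, 226 and 224 at 4 weeks, a log2 change of 0.84 (SE 0.22, edgeR adjusted p 0.0455). Counting did not use strand and 84.2% of the Fen1 exon length overlaps Tmem258 and Gm10143, so reads in the overlap cannot be told apart by strand. The Fen1 count may therefore hold reads of these genes or lack its own. Overlap was 15.1% for Rfc2 (Lat2), 12.7% for Rfc4 (Eif4a2), 7.8% for Slbp (Gm10459) and 6.93% for Orc6 (Vps35). Lig1, the ligase that joins the fragments, had a change of 0.62 (SE 0.24) and did not pass (edgeR adjusted p 0.151). Dut (chromosome 2, 125247190 to 125258608) had 182, 156, 172 and 190 CPM and then 395, 242 and 242, a change of 0.75 (SE 0.20, edgeR adjusted p 0.0469). All 5 genes of nucleotide supply were without overlap between the times; besides Dut, 0 of them passed, with Tk1, thymidine kinase, closest at 0.85 (SE 0.24, edgeR adjusted p 0.0518). Rrm2, the regulated subunit of ribonucleotide reductase, had 126, 127, 128 and 144 CPM at 2 weeks and 303, 211 and 229 at 4 weeks, yet an edgeR adjusted p of 0.182 with a SE of 0.38. That SE draws on the spread within all 7 groups of the fit. In Il1bKO at 4 weeks library 5 had 30.98 CPM of Rrm2 against 171.9 and 172.5 in its replicates. With only the 2 groups compared, Rrm2 passed in edgeR.

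Rpa3, the small subunit of the single-strand binding protein RPA (chromosome 6, 8255936 to 8259173), had 57.4, 54.1, 68.1 and 50.6 CPM at 2 weeks and 107, 78 and 74 at 4 weeks, a log2 change of 0.58 (SE 0.15, edgeR adjusted p 0.0431). Rpa2 had a change of 0.51 (SE 0.18, edgeR adjusted p 0.116) with no overlap of the groups. Among the licensing genes Orc6 (chromosome 8, 85299632 to 85308278) rose, with 67, 72.9, 74.3 and 67.2 CPM and then 142, 95.4 and 88.2, a log2 change of 0.63 (SE 0.16, edgeR adjusted p 0.0439). Cdc6 had 44.5, 47.5, 38.9 and 45.4 CPM and then 62.3, 85.9 and 95.6 without overlap, at 0.88 (SE 0.32, edgeR adjusted p 0.118). The other licensing genes, Cdt1 and Orc1, did not pass either.

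The helicase, its activators and the polymerases had 0 called genes of 22, all with positive changes. The median log2 change was 0.59 over the 6 Mcm2 to Mcm7 genes, 0.51 over the 7 activators and 0.54 over the 9 primase and polymerase genes, and 5, 6 and 4 genes of these 3 roles were without overlap. Cdc45, the helicase cofactor, had 40, 40.5, 40.5 and 42 CPM at 2 weeks and 71.2, 73.5 and 62.3 at 4 weeks, a change of 0.76 (SE 0.22, edgeR adjusted p 0.0602). Mcm5 had 191, 250, 200 and 238 CPM and then 276, 362 and 366, a change of 0.61 (SE 0.26, edgeR adjusted p 0.195). Pole, the catalytic subunit of the leading-strand polymerase, had overlapping groups, 48.1 to 69.9 CPM and 64.4 to 102. Among the genes of entry into S phase only Ccne2 of 3 was without overlap, and Ccne1 had 17.5, 18.5, 10.7 and 24.6 CPM and then 22, 18.4 and 24.3, a change of 0.28 (SE 0.80, edgeR adjusted p 0.914). The SE of Ccne1 also draws on the other groups of the fit, among them library 5 of Il1bKO at 4 weeks with 0 reads.

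These 9 calls rest on few libraries. With library 5 of Il1r1KO at 4 weeks left out, 0 of the 9 passed (edgeR adjusted p 0.212 to 0.368, log2 changes 0.38 to 0.75), and 0 passed without Il1r1KO 1 (0.0573 to 0.0902) or Il1r1KO 4 of 2 weeks (0.0547 to 0.0987), while 2 passed without Il1r1KO 2 (Rfc3 and Slbp) or without Il1r1KO 3 (Pcna and Slbp). Over all genes tested, 10 were called without library 5 in place of 335. The direction did not rest on it, since 49 of 49 changes were positive under each of 14 alternatives (median 0.58 to 0.66) and 45 of 49 genes were without overlap when library 5 was left out, against 13% of all genes. DESeq2 called 20 of the 49, with all 9 among them, and limma voom called 20, with 7 of the 9. Shares of all genes called are given for edgeR alone, so counts from these 2 tools cannot be set against them.

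**Figure D4:**
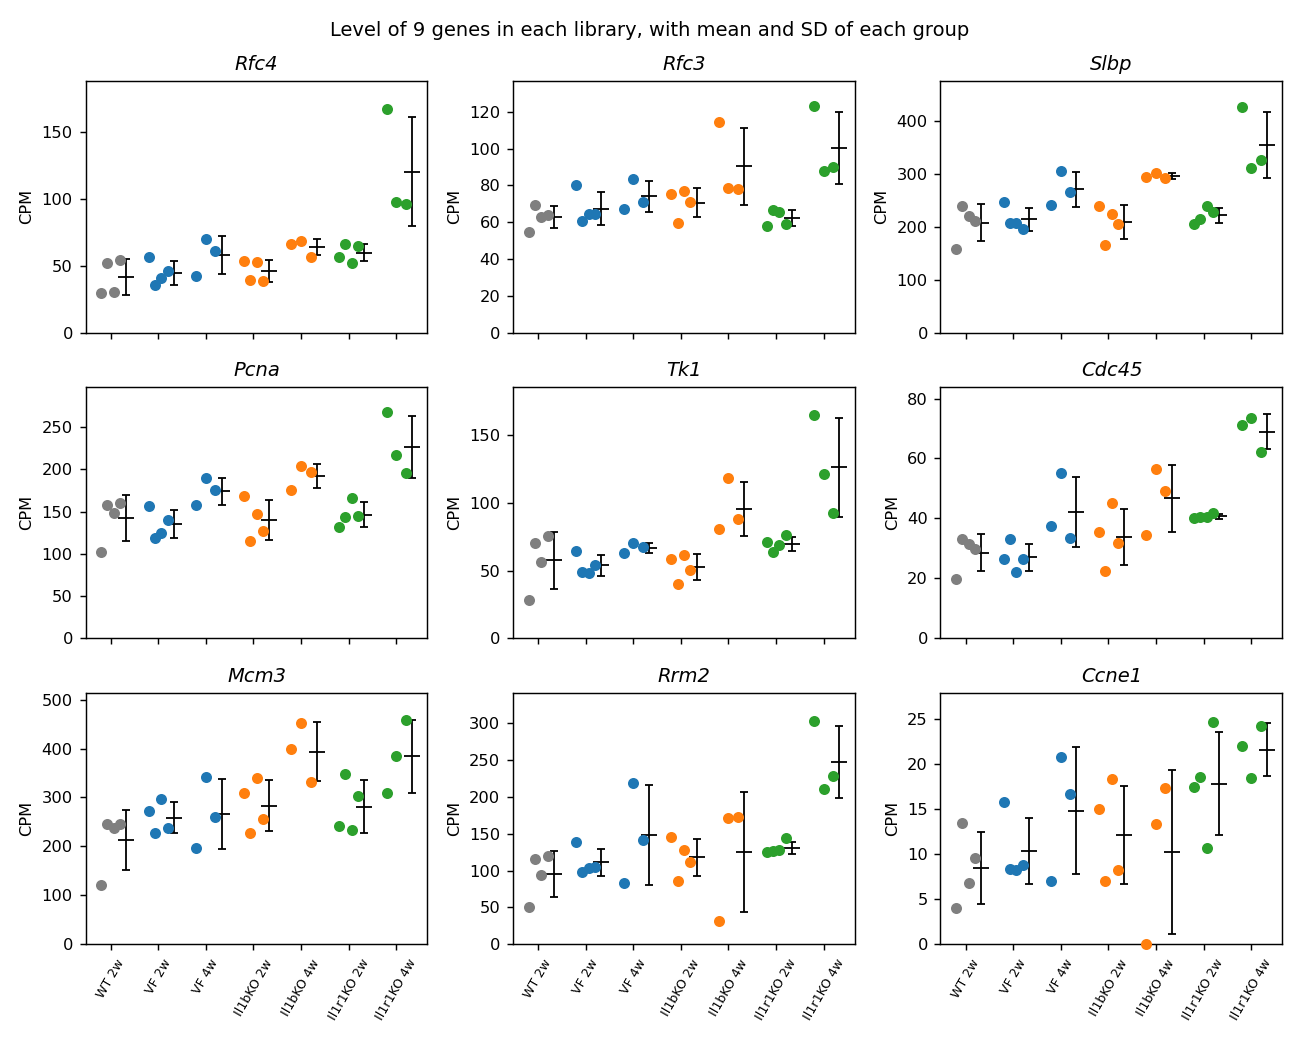
CPM of 9 genes in each library (points), by group, with the mean and SD beside them; axes start at 0. In Rfc4, Rfc3, Slbp, Pcna and Tk1 the highest Il1r1KO point of 4 weeks is library 5, and in Ccne1 and Rrm2 the lowest Il1bKO point of 4 weeks is also a library 5.

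Within Il1bKO, 0 of the 49 genes passed between 4 and 2 weeks in edgeR, against 0.748% of all genes, with 21 at an unadjusted p under 0.05 (all genes 19.1%); DESeq2 called 5 (Fen1, Orc6, Pola2, Slbp and Tk1) and limma voom 1 (Tk1). The median log2 change was 0.43, 46 of 49 were positive (all genes 47.6%) and 16 were without overlap, all higher, against 7.65% of all genes. Orc6 was closest, with 76, 50.1, 76.1 and 58.5 CPM at 2 weeks and 111, 98.3 and 94.5 at 4 weeks, a change of 0.64 (SE 0.16, edgeR adjusted p 0.0598). Slbp had 0.51 (SE 0.14, edgeR adjusted p 0.0756) and Tk1 0.86 (SE 0.24, edgeR adjusted p 0.0763), with 58.2, 39.9, 61.6 and 50.4 CPM of Tk1 and then 80.6, 118 and 87.8. Without library 5 of 4 weeks, 36 of the 49 were without overlap, against 14.2% of all genes; Orc6 passed in edgeR without library 7 of 4 weeks and Pola2, the second subunit of polymerase alpha, without library 6, where the median was 0.29 with 40 positive. Pola2 rested on library 5, at 233 CPM against 108 and 133 in its replicates.

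Within VF, 0 of 49 passed in edgeR (all genes 0.022%), DESeq2 or limma voom, and 9 had an unadjusted p under 0.05 (all genes 8.48%). All 49 changes were positive, with a median of 0.30 (all genes 49.6% positive), and 8 genes were without overlap, against 7.39% of all genes. Pole2, the second subunit of the leading-strand polymerase, had the lowest p, with 29.3, 22.6, 23.4 and 22.8 CPM at 2 weeks and 30.3, 56.8 and 41.2 at 4 weeks, a change of 0.80 (SE 0.25, edgeR adjusted p 0.403). Next were Cdc45 at 0.64 (SE 0.22, edgeR adjusted p 0.469) and Clspn at 0.66 (SE 0.24, edgeR adjusted p 0.488). The highest late value was library 6 for Pole2, Cdc45 and Clspn, and without library 6 the median change of the 49 was 0.09 with 38 positive. Without library 5 of 4 weeks the median was 0.45 with 49 positive and 31 genes were without overlap (all genes 14.4%), and without VF 1 of 2 weeks 15 were (all genes 10.8%).

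At 4 weeks, where both groups come from 1 batch, Il1r1KO had higher values than VF in all 49 genes, with a median log2 difference of 0.52 (all genes 0.01) and 51% of all genes positive, but 0 passed in edgeR (all genes 0.147%). At an unadjusted p under 0.05 there were 26 (all genes 12.7%), DESeq2 called 2 (Rfc4 and Tk1) and limma voom 11, and in 21 genes the 3 Il1r1KO libraries lay above the 3 of VF, against 6.46% of all genes. Rfc4 had 42.4, 70.2 and 60.9 CPM in VF against 167, 97.4 and 96.1, a difference of 1.05 (SE 0.26, edgeR adjusted p 0.104). Tk1 had 62.8, 70.2 and 67.3 CPM against 165, 121 and 92.3, a difference of 0.92 (SE 0.26, edgeR adjusted p 0.144), and Tyms, thymidylate synthase, had 83, 144 and 120 against 267, 198 and 159, at 0.85 (SE 0.26, edgeR adjusted p 0.195). For Rfc4, Tk1 and Tyms alike, each Il1r1KO library was above each VF library. The count of separated genes moved most with VF library 6: without it 45 were without overlap, against 14.8% of all genes, and Rfc4 passed in edgeR (adjusted p 0.0443). Without Il1r1KO library 5 the count was 35 (all genes 14%). Over both times the differences were positive in 49 of 49 (all genes 50.9%), with a median of 0.33 and 24 at an unadjusted p under 0.05 (all genes 11.4%), and 0 passed in edgeR (all genes 0.169%), 3 in DESeq2 (Cdc45, Rfc4 and Tk1) and 10 in limma voom. The 5 of lowest p were Rfc4 at 0.74 (SE 0.17, edgeR adjusted p 0.0761), Cdc45 at 0.65 (SE 0.16, adjusted p 0.105), Tk1 at 0.65 (SE 0.17, adjusted p 0.144), Prim2, the large primase subunit, at 0.54 (SE 0.16, adjusted p 0.202) and Tyms at 0.56 (SE 0.17, adjusted p 0.225). Without VF library 6 of 4 weeks Rfc4 (edgeR adjusted p 0.0346) and Cdc45 (0.0268) passed.

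At 2 weeks the difference between Il1r1KO and VF had a median of 0.15, with 43 of 49 positive (all genes 51.1%), 2 at an unadjusted p under 0.05 (all genes 3.15%) and 0 passing in edgeR (all genes 0.0514%), DESeq2 or limma voom. The 2 genes whose groups did not overlap, against 1.92% of all genes, were Cdc45, with 26.4, 33.1, 22.1 and 26.6 CPM in VF against 40, 40.5, 40.5 and 42 (difference 0.59, SE 0.21), and Clspn, with 22.2, 13.3, 20 and 17.4 against 27.4, 24.9, 33 and 23 (0.57, SE 0.22); the edgeR adjusted p of both was 1. Prim2 followed at 0.42 (SE 0.21, edgeR adjusted p 1). The count of genes without overlap was 14 without VF 1 (all genes 3.82%), 6 without Il1r1KO 2 (all genes 5.89%), 4 without Il1r1KO 1 (all genes 3.49%) and 4 without VF 3 (all genes 2.88%), and 3 without Il1r1KO 3 (all genes 3.53%) or Il1r1KO 4 (all genes 3.11%). The median was 0.09 without VF 2. Whether the difference itself changed between the times was tested: 0 of 49 passed in edgeR (all genes 0%), DESeq2 or limma voom, 1 had an unadjusted p under 0.05 (all genes 5.32%), the median was 0.30 and 46 were positive (all genes 51.1%). Rfc3 was closest at 0.55 (SE 0.21, edgeR adjusted p 0.872), followed by Rfc4 (0.64, SE 0.33) and Slbp (0.34, SE 0.20). The median of this change was 0.20 without VF 5 and 0.53 without VF 6.

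**Figure D5:**
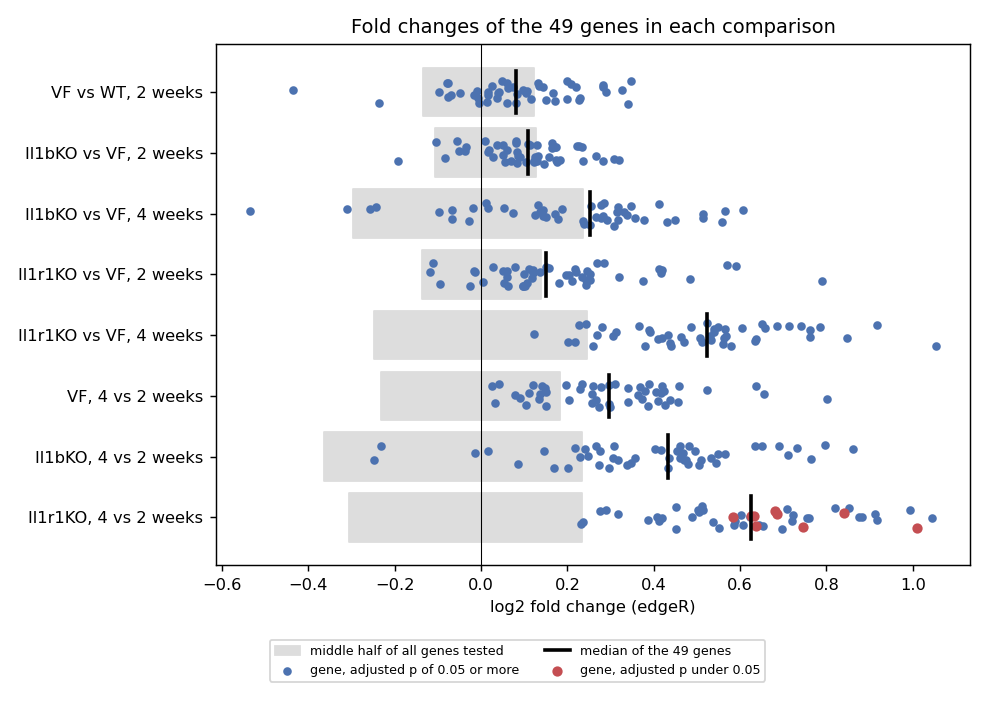
Log2 fold changes from edgeR of the 49 genes (points) in 8 comparisons, with their median (black line) and the range from the lower to the upper quartile of all genes tested (grey). Red points passed at an adjusted p under 0.05; they are 9 genes of Il1r1KO at 4 against 2 weeks, where the median is 0.63.

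Il1bKO was compared with the same VF libraries as Il1r1KO, so the 2 comparisons share their controls. Over both times, 42 of 49 differences were positive (all genes 47.8%) with a median of 0.16, and 0 passed in edgeR (all genes 0.139%), DESeq2 or limma voom, with 2 at an unadjusted p under 0.05 (all genes 9.38%). Rfc1 had the lowest p, with 140, 144, 150 and 143 CPM in VF and 170, 131, 162 and 170 in Il1bKO at 2 weeks, and 143, 176 and 139 against 204, 202 and 165 at 4 weeks. Its difference was 0.22 (SE 0.08, edgeR adjusted p 0.397) and the groups overlapped at both times. Mcm3 had 0.35 (SE 0.16, edgeR adjusted p 0.503), and Pola2, Prim1, the catalytic primase subunit, and Mcm5 had 0.32, 0.32 and 0.33. At 4 weeks the median was 0.25 with 40 positive (all genes 48%), 0 passed in any of the 3 tools (edgeR, all genes 0.125%), 3 had an unadjusted p under 0.05 (all genes 14.7%), and only Tk1 was without overlap, against 5.72% of all genes. At 2 weeks the median was 0.11 with 42 positive (all genes 50.1%), and 0 passed in any of the 3 tools (edgeR, all genes 0.00734%). There 0 had an unadjusted p under 0.05 (all genes 1.36%), 0 were without overlap (all genes 1.56%), and the 3 of lowest p were Cdc45 (0.32), Prim1 (0.31) and Clspn (0.28). At 4 weeks the median was 0.09 without VF 5 (34 positive), 0.10 without Il1bKO 6 (33 positive) and 0.39 without VF 6 (45 positive). The count without overlap there was 23 without VF 6 (all genes 11%), 11 without Il1bKO 5 (all genes 11.7%), 6 without Il1bKO 7 (all genes 11%) and 2 without Il1bKO 6 (all genes 10.4%). Leaving out the 3 libraries standing apart (VF 6, Il1bKO 5 and Il1r1KO 5) gave a median of 0.46 at 4 weeks, with 49 positive. There 43 were without overlap (all genes 21.2%), with 2 libraries left in each group. The count for Il1r1KO against VF in that setting was 48 (all genes 24.5%). At 2 weeks the median was 0.02 without Il1bKO 1, 0.03 without Il1bKO 3, 0.06 without VF 2 and 0.20 without Il1bKO 2, where 4 were without overlap (all genes 3.47%), and over both times it was 0.10 without VF 5 and 0.09 without Il1bKO 6. The change of this difference between the times had a median of 0.11 with 39 positive (all genes 48.2%), and 0 passed in any of the 3 tools (edgeR, all genes 0.0147%) and 0 had an unadjusted p under 0.05 (all genes 8.28%), with Pola2 closest at 0.58 (SE 0.32, edgeR adjusted p 0.644). That median rested on single libraries of both groups: leaving out 1 library gave 0.0037 (25 positive, without VF 5), 0.02 (28, without Il1bKO 2), 0.03 (25, without Il1bKO 6), 0.06 (35, without Il1bKO 4) and 0.07 (32, without VF 1), or 0.18 to 0.26 without Il1bKO 1, 3 or 5 or VF 6. Without the 3 libraries standing apart it was 0.36 with 46 positive.

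Between the 2 knockouts over both times, Il1r1KO had the higher value in 45 of 49 genes (all genes 53.7%), with a median of 0.18. No gene passed in edgeR (0 of 49, all genes 0.176%) or limma voom (0), DESeq2 called Rfc4, and 6 had an unadjusted p under 0.05 (all genes 14.1%). Rfc4 had a difference of 0.65 (SE 0.17, edgeR adjusted p 0.148), Cdc45 0.42 (SE 0.16, edgeR adjusted p 0.26) and Tk1 0.41 (SE 0.17, edgeR adjusted p 0.299). Without Il1bKO library 5 of 4 weeks the median was 0.11 with 43 positive.

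Between VF and the libraries labelled WT at 2 weeks, 0 of 49 genes passed in edgeR (all genes 0.00734%), DESeq2 or limma voom, 0 had an unadjusted p under 0.05 (all genes 2.27%), and 0 were without overlap (all genes 1.87% higher). The median was 0.08 with 37 positive (all genes 50.5%). Clspn had the lowest p, at 18.5, 28.6, 23.4 and 28 CPM in WT against 22.2, 13.3, 20 and 17.4, a difference of -0.44 (SE 0.22, edgeR adjusted p 1). Mcm2 had 105, 257, 220 and 210 CPM in WT against 298, 207, 249 and 238, a difference of 0.33 (SE 0.22), E2f1, the transcription factor, had 20.1, 39.1, 37.7 and 39.9 against 46.8, 42.5, 47.2 and 37.6 (0.35, SE 0.25), and Mcm3 0.28 and Rfc2 0.20; the edgeR adjusted p was 1 for each. WT 1 was the lowest library for Mcm2, E2f1 and Mcm3, and without it the median over the 49 turned to -0.05 with 15 positive. It was 0.15 without WT 2, 0.12 without WT 4, 0.03 without VF 1 and 0.13 without VF 2. Without WT 3 and WT 4, the 2 with few GFP reads, the median was 0.17 with 46 positive and 0 passed.

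Other genes of replication, 60 listed by name, were also mostly positive in the Il1r1KO time comparison: 56 of 60 were positive with a median of 0.56, and 8 rose in edgeR (all genes called higher 1.67%). Among them were Rnaseh2c, a subunit of RNase H2 (log2 change 0.67, SE 0.12, edgeR adjusted p 0.0127), Fbxo5, an inhibitor of the anaphase-promoting complex (0.995, SE 0.22), Esco2, which acetylates cohesin (1.25, SE 0.28), the checkpoint kinase Chek1 (1.12, SE 0.26), Tipin of the fork protection complex (0.89, SE 0.23), Usp1, a deubiquitinase that acts on Pcna (0.72, SE 0.19), and the histone chaperone Asf1b (1.21, SE 0.32). Esco2 had 41.3, 34.7, 53 and 32.3 CPM at 2 weeks and 124, 96.1 and 66.9 at 4 weeks, without overlap. In Il1bKO 1 of the 60 rose, the histone chaperone Nasp (0.80, SE 0.19, edgeR adjusted p 0.0484), where 0.748% of all genes were called in either direction. Of the 60, 0 passed in edgeR in the other comparisons (all genes 0% to 0.176%). At an unadjusted p under 0.05 there was 1 for VF against WT (all genes 2.27%, lowest p Rnaseh2c, Nasp and Rnaseh2a). There were 6 for Il1bKO against VF over both times (all genes 9.38%; among them Samhd1 and Dck), or 10% of the 60, and 15 for Il1r1KO against VF over both times (all genes 11.4%; lowest p Timeless, Samhd1 and Nasp), or 25%. Samhd1, which breaks down deoxynucleotides, had negative differences, at -0.41 (SE 0.14, edgeR adjusted p 0.383) in Il1bKO and -0.43 (SE 0.14, edgeR adjusted p 0.236) in Il1r1KO. At 2 weeks its groups overlapped, at 84.1 to 107.3 CPM in VF, 79.9 to 105.4 in Il1bKO and 82.8 to 105.6 in Il1r1KO. At 4 weeks the VF libraries, shared by both differences, had 123.3, 177.3 and 84.72 CPM. Il1bKO then had 68.63, 74.57 and 70.55, and Il1r1KO 94.98, 55.56 and 65.94.

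In the Il1r1KO time comparison 40 of 40 genes of G2 and M phase were positive (all genes 48.2%) with a median of 0.99, and 15 rose in edgeR (all genes called higher 1.67%), among them Cdk1, Aurkb and Ccnb2. Their summed level was 5041 to 9173 CPM at 4 weeks against 3218 to 4209 at 2 weeks, with library 5 the highest. Against VF, G2 and M phase genes were positive in 10 of 40 at 2 weeks (all genes 51.1%) and 40 of 40 at 4 weeks (all genes 51%). The change of that difference between the times passed in edgeR for 0 of 40 (all genes 0%), with 19 at an unadjusted p under 0.05 (all genes 5.32%). The pocket proteins and other E2F factors, 11 genes, had 0 called in edgeR (all genes 2.46%) and summed to 969.5 to 994.1 CPM at 4 weeks against 870.1 to 1013.

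Markers of cell identity were set beside the Il1r1KO time comparison. Stem cell markers were positive in 1 of 15, with a median of -0.31; Mecom, a transcription factor of stem cells, fell in edgeR, and their summed level was 2690 to 3233 CPM at 4 weeks against 3735 to 3891 at 2 weeks. The same sum at 4 weeks lay below the range of 2 weeks in VF, 3355 to 3447 against 3723 to 4405, and in Il1bKO, 3096 to 3595 against 3827 to 4511. Neutrophil and monocyte markers were positive in 1 of the 11 tested (13 listed), with a median of -1.70 and 3 at an unadjusted p under 0.05 (all genes 19.3%), and erythroid markers in 9 of 11, with a median of 1.01 and 4 at an unadjusted p under 0.05. Megakaryocyte markers were positive in 6 of 9 (median 0.42), multipotent progenitor markers in 4 of 5 (median 0.28), mast and basophil markers in 3 of 4 (median 1.09) and B lineage markers in 2 of 3 (median 0.56), and in edgeR 0 of these 6 lists' genes passed (all genes 2.46%). The 5 multipotent progenitor markers summed to 292.1 to 585.9 CPM against 246.3 to 511.8, the 11 neutrophil and monocyte markers to 490.2 to 718.7 against 565.6 to 865.5, and the 11 erythroid markers to 2072 to 3027 against 1710 to 3056. Megakaryocyte markers (9) summed to 920.9 to 1234 CPM against 392.8 to 1442, B lineage markers (3 of 8 tested) to 32.1 to 58.1 against 20.9 to 39.2, and mast and basophil markers (4 of 5 tested) to 5.46 to 10.6 against 1.49 to 6.94. Of the T and NK markers 1 of 7 was tested, Nkg7, which rose in edgeR from 19.7 to 31.5 CPM at 2 weeks to 55.9 to 106.6 at 4 weeks. Genes defining B and T cells, among them Pax5, Cd3e and Cd4, were not among the genes tested. The part of these cell markers in the replication values was not tested.

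Of the 49 genes, 4 lie within 10 Mb of the Il1b, Il1r1 or Echdc2 locus. Pcna is 2.878 Mb and Dut 4.106 Mb from Il1b on chromosome 2, Prim2 is 6.555 Mb from Il1r1 on chromosome 1, and Orc1 is 0.4001 Mb from Echdc2 on chromosome 4, a gene that an earlier look at these data had singled out. Pcna had 118.7 to 156.1 CPM in VF and 115.5 to 168.9 in Il1bKO at 2 weeks, and 157.8 to 189.2 against 175.9 to 203.7 at 4 weeks. Dut had 132.2 to 164.1 CPM in VF and 124.5 to 187.1 in Il1bKO at 2 weeks, and 166.1 to 246.5 against 186.4 to 258.4 at 4 weeks. For both genes VF and Il1bKO overlapped at both times. Prim2 had 31.3, 28.1, 42 and 29.9 CPM in VF and 46.1, 46, 44 and 39.3 in Il1r1KO at 2 weeks, which overlap, and 38.6, 56.4 and 40.4 against 78.9, 68.5 and 66 at 4 weeks, which do not. Orc1 had 11.9, 27.9 and 17.6 CPM in VF at 4 weeks against 29.2, 24.2 and 23.9 in Il1bKO and 30.4, 18.1 and 30.5 in Il1r1KO, all with overlap.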

How the data were processed

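Gene counts of 25 libraries, as the authors deposited them, were the values analysed, unstranded SMART-Seq v4 libraries per the labels' protocols. The submitters' processing notes name STAR 2.7.10a, featureCounts (version not given in the sources used here), FastQC 0.11.5, R 4.2.2 and the mm10 build. The table held 4 construct rows (at most 0.197% of a library's counts), which were left out of library sizes and tests. Table columns were assigned to samples through the genotype and number in each title. Every gene reached at least 32 reads in some library, so a filter preceded deposit. Positions came from GENCODE vM21 (mm10), which held 13604 of the 13641 IDs.

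The main test was edgeR 4.0.16 under R 4.3.3 (TMM, filterByExpr, robust quasi-likelihood, 7 groups in 1 fit, 13630 genes, Benjamini-Hochberg at 0.05, common dispersion 0.169). Each fold change and SE comes from this fit, differences over both times are the mean of the 2 within-time differences, and levels are TMM-scaled CPM. Alternatives were RLE factors, DESeq2 1.42.0, limma 3.58.1 voom with quality weights, no filter, CPM of at least 5 in 3 libraries, only the groups compared, a replicate block and each library left out. Fits without the 3 libraries standing apart and without 2 WT libraries were added after the data were seen. The pipeline was tested on simulated data.

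The 49 genes, the other gene lists and the tests were chosen with earlier results of these data known. Genes named with values were those past the threshold, the 3 to 5 of lowest p in each comparison, 1 for each role, those within 10 Mb of Il1b, Il1r1 or Echdc2 and those of largest and smallest spread; Slbp, Rfc3, Mcm3 and Orc1 were chosen for their promoters after the values were seen. Values of some genes outside the 49 are not reported here.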

Additional observations from a re-analysis of the deposited data

Results flagged for a closer look

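In groups of 4, Dixon's test at the 95% level was run on 136 sets of values of the genes named above, and 9 values stood off from the other 3 of their group; chance alone would give about 5%. In WT 1, 4 genes were low: E2f1 at 20.15 CPM (others 37.74 to 39.94), Gins2 at 71.08 (89.4 to 92.97), Mcm3 at 121.5 (237.8 to 246.2) and Pole2 at 16.55 (26.01 to 27.88). In VF at 2 weeks, library 1 was high for Ccne1 at 15.78 CPM (others 8.283 to 8.816) and for Pole2 at 29.31 (22.65 to 23.45), and library 2 was low for Pold2 at 38.43 (48.76 to 50.23). In Il1r1KO at 2 weeks, library 4 was high for Rrm2 at 143.6 CPM (others 125.7 to 127.9) and library 3 for Tyms at 122.8 (108.8 to 111.1).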

How the results depend on the processing

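All 49 changes of Il1r1KO between 4 and 2 weeks kept a positive sign under each of 14 alternatives, but the number of genes called there moved most. Against 9 in the main analysis it was 20 with DESeq2, 20 with limma voom, 3 with only the 2 groups compared (Fen1, Rrm1 and Rrm2), 0 to 13 with 1 library left out and 1 (E2f1) without the 3 libraries standing apart (VF 6, Il1bKO 5 and Il1r1KO 5 of 4 weeks). For Il1r1KO against VF over both times, 0 became 3 with DESeq2, 10 with limma voom, 2 with only the groups compared, 0 to 2 with 1 library left out (2 without VF 6) and 7 without the 3 libraries. At 4 weeks, 0 became 2 with DESeq2, 11 with limma voom, 0 to 1 with 1 library left out and 7 without the 3 libraries. For Il1r1KO against Il1bKO DESeq2 called 1. For Il1bKO at 4 against 2 weeks, 0 became 5 with DESeq2, 1 with limma voom and 0 to 1 with 1 library left out. The cause was not tested. Shares of all genes called by DESeq2 and limma voom are not given here. RLE factors, no filter and the CPM filter gave counts within 1.5 times of the main ones in every comparison. Of 882 values for single named genes, 795 kept direction and side of the threshold, 63 lost it, 24 gained it and 0 reversed. Most of the 882 belong to results not called in the main analysis, which could not lose a call. All 63 losses came from the 9 called genes of Il1r1KO at 4 against 2 weeks. Each of the 9 kept its call in only 5 (Dut) to 9 (Slbp) of 14 alternatives. The sign of the VF against WT median rested on WT 1 (0.08 with it, -0.05 without).

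The replicate number as a block left the count of called genes at 0 in every comparison where it was estimable, and was not run for 4 against 2 weeks, whose groups share no number. Numbers did not pair the libraries: over 33 same-numbered pairs r was -0.148 to 0.0799, and 0 of 25 libraries correlated best with their own number in every other group of their week. Groups of 3 or 4 libraries limit the precision.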
